A study of Homo sapiens with 2 samples.

Results

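The 10 genes described here are TGF-beta pathway genes of the human bladder line T24/R: the ligand genes TGFB1 and TGFB2, the receptor genes TGFBR1 and TGFBR2, the signal transducer genes SMAD2, SMAD3 and SMAD4, the inhibitory SMAD genes SMAD6 and SMAD7, and the corepressor gene SKIL. They were taken by symbol from the 58884 Ensembl gene IDs that each count file lists, and all 10 were found. RNA was sequenced from T24/R cells given 1600 nM THZ1 for 6 h and from T24/R cells given the solvent DMSO for 6 h. THZ1 is a covalent inhibitor of CDK7, a kinase that acts on RNA polymerase II, and it also reaches CDK12 and CDK13. The culture conditions were shared by both groups, and the series title places the line in work on chemonaive and chemoresistant urothelial carcinoma. There were 2 samples, 1 library per group, so the differences have no replicate check, no p-value is given, and variation between cultures was not measured. Fewer cells and less RNA per cell cannot be told apart in such libraries.

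TGF-beta ligands are secreted in a latent complex and, once released, bring together a type II and a type I serine/threonine kinase receptor. The type I receptor phosphorylates SMAD2 and SMAD3, which join SMAD4 and regulate genes in the nucleus. SMAD6, SMAD7 and the SKIL product SnoN restrain this signal, and SMAD7 and SKIL are among the genes that the signal itself induces. In urothelial and other epithelial tumour cells the pathway is known both for growth arrest and for epithelial-mesenchymal transition.

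The THZ1 library held 18313827 counts over 23528 genes and the DMSO library 18445831 counts over 23986 genes. The label calls the cells epithelial, but of 15 urothelial and epithelial marker genes only 4 reached 30 counts in either library. CDH1 had 3 counts in THZ1 and 2 in DMSO, EPCAM had 3 and 0, and the uroplakin genes UPK1B and UPK3A had 0 in both, while KRT18 had 494 and 696. FOXA1, an epithelial transcription factor gene, had 21 counts in THZ1 and 129 in DMSO and was the only one of these 4 that was lower by at least 2-fold (log2 ratio of THZ1 over DMSO −2.07, 95% counting interval −2.83 to −1.42, after TMM scaling of the libraries). Of 4 mesenchymal marker genes 3 were tested and 0 were lower or higher. The filament gene VIM had 84532 counts in THZ1 and 63269 in DMSO (0.94, 0.93 to 0.96), and the ratios of CDH2 and SPARC were 0.45 and 0.55; CDH2 lies below 0 with total counts and all 3 do when the libraries are scaled on mitochondrial mRNAs. S100A4 had 3 counts in each library. Of 6 leukocyte and 4 endothelial marker genes 0 reached 30 counts, and the leukocyte gene PTPRC had 0 counts in THZ1 and 1 in DMSO. Of 6 fibroblast markers, LUM, a matrix proteoglycan gene, was tested and was higher, with 69 counts in THZ1 and 34 in DMSO (1.54, 0.93 to 2.18; −0.15 when scaled on mitochondrial mRNAs). The other fibroblast markers had at most 9 counts in a library, as COL3A1 did in THZ1 and DCN in DMSO. FAP had 0 in both, and the 6 genes summed to 3.48 TPM in THZ1 and 2.46 TPM in DMSO (TPM is a gene's share of a library's reads per exonic length). The part of these markers in the results was not tested.

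Sequences upstream of the start sites of 4 members are given. These members are the ligand gene that was lower (TGFB2), the one that was not (TGFB1), and the feedback genes SMAD6 and SKIL. SMAD6 and SKIL were the members with the lowest ratios. The sequences come from RefSeq (GRCh38.p14) and are written 5′ to 3′ on the gene's own strand. Positions count back from −1, the base before the RefSeq start. The stretches run from −150 to −1, except that of SKIL, which runs from −150 to −38 because GENCODE starts the gene at the next base. Capitals mark matches on either strand to one of 6 motifs: the SMAD box palindrome GTCTAGAC, the cAMP response element TGACGTCA, the AP-1 site TGANTCA, the E-box CACGTG, the GC box GGGCGG and the TATA box TATAAA.
TGFB2, chr1:218345186-218345335, plus strand: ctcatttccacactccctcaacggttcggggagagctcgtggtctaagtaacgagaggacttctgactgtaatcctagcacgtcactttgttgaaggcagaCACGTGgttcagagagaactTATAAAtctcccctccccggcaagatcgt
TGFB1, chr19:41353923-41354072, minus strand: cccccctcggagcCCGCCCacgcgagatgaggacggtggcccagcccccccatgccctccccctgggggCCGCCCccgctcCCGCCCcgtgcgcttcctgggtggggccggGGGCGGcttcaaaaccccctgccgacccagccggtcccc
SMAD6, chr15:66702086-66702235, plus strand: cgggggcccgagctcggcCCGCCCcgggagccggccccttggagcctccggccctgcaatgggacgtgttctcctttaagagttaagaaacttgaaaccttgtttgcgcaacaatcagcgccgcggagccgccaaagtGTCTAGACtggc
SKIL, chr3:170357565-170357677, plus strand: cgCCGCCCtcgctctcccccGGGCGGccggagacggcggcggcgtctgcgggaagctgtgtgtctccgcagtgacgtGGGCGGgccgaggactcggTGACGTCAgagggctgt

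The TGFB2 stretch holds an E-box at positions −49 to −44 and a TATA box at −29 to −24, and no GC box, whereas the TGFB1 stretch holds 4 GC boxes and no TATA box. SMAD6 carries the SMAD box palindrome at −12 to −5, and SKIL carries a complete cAMP response element at −54 to −47. The last 8 bases of the SMAD6 stretch lie in a GENCODE exon of the gene, so part of the palindrome does too. For TGFB2 the RefSeq start, at 218345336, lies upstream of the GENCODE start at 218346235. Over the 250 bases before each of 35116 RefSeq starts of all genes, the palindrome was present in 0.182%, the cAMP response element in 1.65%, the AP-1 site in 6.57%, the E-box in 6.34%, the TATA box in 10.7% and the GC box in 42.6%. The 10 members have 25 such windows, of which SMAD6 alone held the palindrome and SKIL alone the cAMP response element. TATA boxes stood in 2 of the 7 windows of members that were lower in THZ1 (TGFB2 and SMAD7). They stood in 0 of the 18 windows of the other members, 8 of which belong to TGFBR1. For SMAD7 the match was in 1 of its 3 windows, that of RefSeq start 48949333, and the split was not tested. All 250 bases of 1 other SMAD7 window, and of 1 SMAD2 window, lie in GENCODE exons of the gene. GC boxes stood in 3 of these 7 windows and in 9 of those 18. These matches describe the letters and not the binding of a factor, and several windows belong to the same gene. The motifs were chosen with the sequences in view, so the shares over all genes do not measure how unusual these matches are.

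After 6 h of THZ1, TGFB2, SMAD4, SMAD6, SMAD7 and SKIL were at least 2-fold lower than in DMSO, while TGFB1, both receptor genes, SMAD2 and SMAD3 were within 2-fold. Levels are given as CPM (a gene's share of a library's counts) scaled by TMM, a method that sets the bulk of genes to no difference between libraries. Genes count as lower or higher here where the ratio reached 2-fold and its 95% counting interval excluded 1. By this rule 5 of 10 members were lower, beside 21.3% of the 12457 tested genes, and 0 were higher, beside 9.70%. The members were chosen with earlier results of these data known, so these shares do not measure how unusual they are. The median log2 ratio of THZ1 over DMSO was −0.91 over the members and −0.03 over all tested genes. The scaling moves all log2 ratios by one constant, which is −0.51 with total counts and −1.69 with the 13 mitochondrially encoded mRNAs, so that the median of all genes becomes −0.54 and −1.72. All tested genes then split into 4260 lower and 368 higher with total counts and 10000 lower and 88 higher with the mitochondrial mRNAs, against 2657 lower and 1208 higher with TMM. The same 5 members were lower with total counts, beside 34.2% of all tested genes. All 10 were lower with the mitochondrial mRNAs, beside 80.3% of all tested genes. For scale, the housekeeping genes ACTB and GAPDH stood at 4247 and 3732 CPM in THZ1 and at 3647 and 2775 CPM in DMSO on the TMM scale. Their log2 ratios there were 0.22 and 0.43. With total counts they become −0.30 and −0.09, and with the mitochondrial mRNAs −1.47 and −1.26, so their direction depends on the scaling. Values below are on the TMM scale unless another is named.

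**Figure D1:**
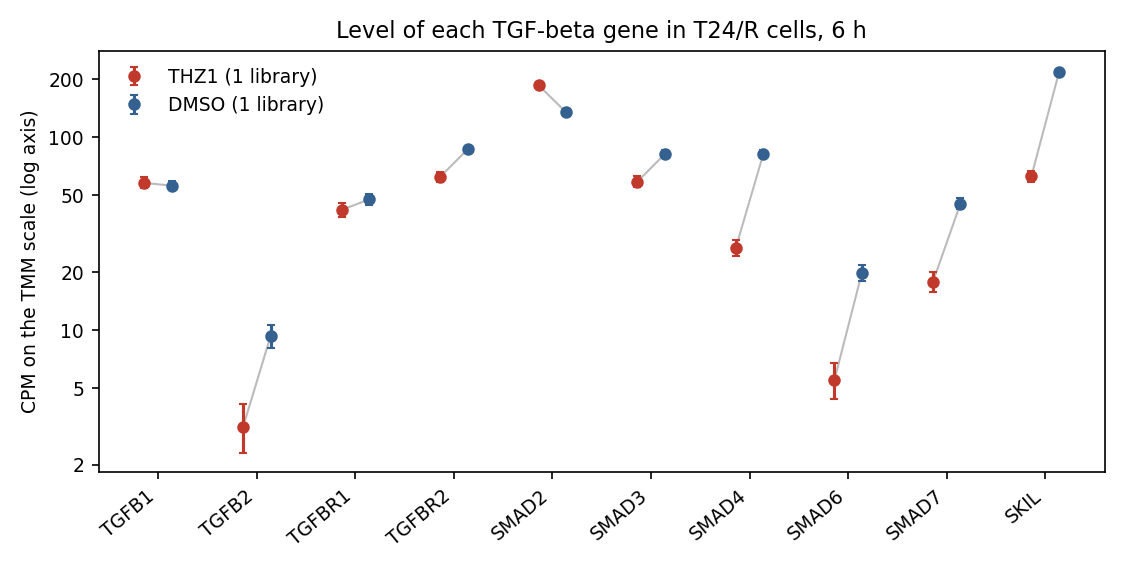
CPM on the TMM scale (log axis) of the 10 genes in the THZ1 library (red, left of each pair) and the DMSO library (blue, right), with exact Poisson 95% intervals of the counts. The lines of TGFB2, SMAD4, SMAD6, SMAD7 and SKIL are steep, SKIL standing at 62.8 CPM in THZ1 and 216.9 CPM in DMSO, while TGFB1 is level.

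The ligand genes went apart. TGFB1, which encodes the most widely expressed isoform, had 888 counts (58.0 CPM) in THZ1 and 1235 counts (56.0 CPM) in DMSO. Its log2 ratio was 0.05 (−0.08 to 0.17), which becomes −0.47 with total counts, so its direction depends on the scaling. TGFB2, whose product needs the coreceptor betaglycan for efficient receptor binding, had 48 counts (3.13 CPM) in THZ1 and 205 counts (9.30 CPM) in DMSO. TGFB2 was 2.94-fold lower (log2 ratio −1.56, −2.05 to −1.11). Per exonic length, TGFB1 was the much more abundant ligand mRNA in both libraries, at 38.5 TPM against 1.31 TPM for TGFB2 in THZ1 and 72.8 against 7.59 TPM in DMSO. The number of TGFB2 transcripts per TGFB1 transcript was thus 0.0340 in THZ1 and 0.104 in DMSO, a log2 change of −1.62 (−2.12 to −1.14) that no scaling can alter. The levels themselves depend on the length used. With median lengths of the annotated transcripts they were 0.00800 in THZ1 and 0.0246 in DMSO. TGFB1 (ENSG00000105329) lies on chromosome 19 from 41301587 to 41353911 and TGFB2 (ENSG00000092969) on chromosome 1 from 218346235 to 218444619 (GENCODE 29, GRCh38). TGFB1 shares 215 exonic bases with HNRNPUL1 on the opposite strand, a gene with 4451 counts in THZ1 and 5864 in DMSO, so its count is uncertain where strand was not used in counting. TGFB2 shares 1371 of its 5151 exonic bases with TGFB2-OT1 on the same strand, which was listed at 0 in both libraries. Whether reads in the shared bases were counted for TGFB2 is not known, so its count is uncertain too.

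Both receptor genes were within 2-fold. TGFBR2, the ligand-binding type II receptor, had 953 counts (62.2 CPM) in THZ1 and 1908 counts (86.5 CPM) in DMSO, a log2 ratio of −0.48 (−0.59 to −0.36). TGFBR1, the type I receptor that phosphorylates SMAD2 and SMAD3, had 643 counts (42.0 CPM) in THZ1 and 1049 counts (47.6 CPM) in DMSO, with a ratio of −0.18 (−0.32 to −0.04). Both counting intervals lie below 0 on this scaling, and also with total counts, where the ratios are −0.99 and −0.70. TGFBR1 stood at 0.464 transcripts per TGFBR2 transcript in THZ1 and at 0.378 in DMSO, a log2 change of 0.30 (0.11 to 0.48). The change does not depend on transcript length, but which receptor mRNA is the more abundant does: with median lengths of the annotated transcripts the ratio was 2.81 in THZ1 and 2.29 in DMSO. TGFBR2 (ENSG00000163513) is on chromosome 3 from 30606502 to 30694142 and TGFBR1 (ENSG00000106799) on chromosome 9 from 99104038 to 99154192.

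Of the SMAD genes that carry the signal, SMAD4 was lower and SMAD2 and SMAD3 were within 2-fold. SMAD2 had 2844 counts (185.6 CPM) in THZ1 and 2961 counts (134.3 CPM) in DMSO. Its ratio of 0.47 (0.39 to 0.54) was the highest of the 10 and becomes −0.05 with total counts and −1.22 with the mitochondrial mRNAs, so no direction holds across scalings. SMAD3 had 899 counts (58.7 CPM) in THZ1 and 1802 counts (81.7 CPM) in DMSO, a ratio of −0.48 (−0.60 to −0.36). SMAD4, the shared partner of all receptor-activated SMADs, had 408 counts (26.6 CPM) in THZ1 and 1806 counts (81.9 CPM) in DMSO and was 3.07-fold lower (−1.62, −1.78 to −1.47). SMAD3 and SMAD4 thus had nearly the same CPM in DMSO and different ones in THZ1. Within a library, SMAD4 stood at 0.315 transcripts per SMAD3 transcript in THZ1 and at 0.696 in DMSO (log2 change −1.14, −1.34 to −0.95), and SMAD3 at 1.26 per SMAD2 transcript in THZ1 and at 2.43 in DMSO (−0.95, −1.08 to −0.81). With median transcript lengths there were 0.501 SMAD3 transcripts per SMAD2 transcript in THZ1 and 0.964 in DMSO, so which of these mRNAs is the more abundant depends on the length used. SMAD2 (ENSG00000175387) is on chromosome 18 from 47808957 to 47931146, SMAD4 (ENSG00000141646) on the same chromosome from 51028394 to 51085045, and SMAD3 (ENSG00000166949) on chromosome 15 from 67063763 to 67195195. SMAD4 shares 967 exonic bases with ENSG00000267699 on the same strand, which was listed at 0 in both libraries. Whether reads in the shared bases were counted for SMAD4 is not known.

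**Figure D2:**
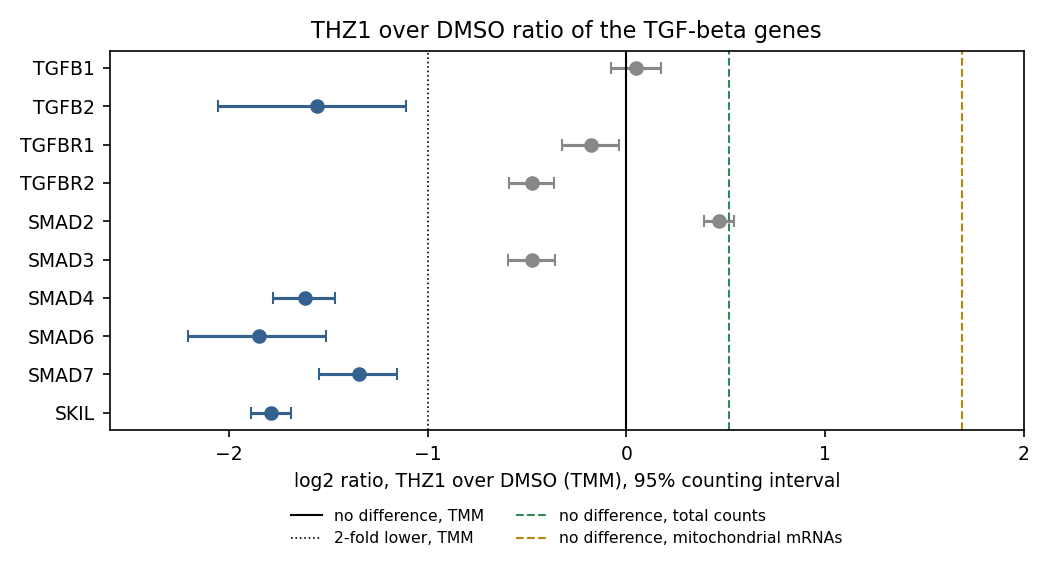
Log2 ratio of THZ1 over DMSO on the TMM scale with its 95% counting interval for each gene, blue for genes called lower and grey for those within 2-fold. Vertical lines show where no difference lies with TMM, total counts and the mitochondrial mRNAs, and a dotted line marks 2-fold lower with TMM. The intervals of 5 genes lie wholly below −1, from TGFB2 (upper bound −1.11) to SKIL (upper bound −1.69), and SMAD2 at 0.47 lies below the line of total counts.

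All 3 genes that restrain the signal were lower. SMAD6, an inhibitor that acts mainly on the BMP branch, had 84 counts (5.48 CPM) in THZ1 and 437 counts (19.8 CPM) in DMSO and was 3.60-fold lower (−1.85, −2.21 to −1.51), the lowest ratio of the 10. SMAD7, which competes for the type I receptor and brings SMURF ubiquitin ligases to it, had 272 counts (17.8 CPM) in THZ1 and 997 counts (45.2 CPM) in DMSO and was 2.54-fold lower (−1.35, −1.55 to −1.15). SKIL, whose product SnoN holds SMAD complexes in a repressed state, had 962 counts (62.8 CPM) in THZ1 and 4783 counts (216.9 CPM) in DMSO and was 3.45-fold lower (−1.79, −1.89 to −1.69). Of all tested genes, 9.08% had a lower ratio than SMAD6, 9.79% than SKIL and 15.5% than SMAD7. SMAD6 (ENSG00000137834) is on chromosome 15 from 66702228 to 66782848, upstream of SMAD3 on the same strand, SMAD7 (ENSG00000101665) on chromosome 18 from 48919853 to 48952052, and SKIL (ENSG00000136603) on chromosome 3 from 170357678 to 170396835.

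The restraining genes were also lower relative to SMAD3, on a measure that does not depend on scaling. So was SMAD4, which carries the signal (log2 change −1.14, −1.34 to −0.95). The restraining genes were not set against SMAD4, whose TMM ratio of −1.62 lies between those of SMAD6 (−1.85) and SMAD7 (−1.35). SMAD7 stood at 0.548 transcripts per SMAD3 transcript in THZ1 and at 1.0 in DMSO (log2 change −0.87, −1.10 to −0.64), and SMAD6 at 0.0994 and 0.258 (−1.38, −1.75 to −1.01). SKIL stood at 1.25 per SMAD3 transcript in THZ1 and at 3.11 in DMSO (−1.31, −1.47 to −1.16), levels that are 0.959 and 2.38 with median transcript lengths. The level of SMAD7 per SMAD3 transcript is then 0.207 in THZ1 and 0.378 in DMSO, and that of SMAD6 is 0.0393 and 0.102. Against its paralogue SKI, which was lower too, SKIL stood at 5.22 in THZ1 and 4.26 in DMSO (0.29, 0.02 to 0.58). Of the 13 pairs of genes compared in this way, these and the pairs given above are described. The intervals are exact ones for counting error, and biological variation would widen them.

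**Figure D3:**
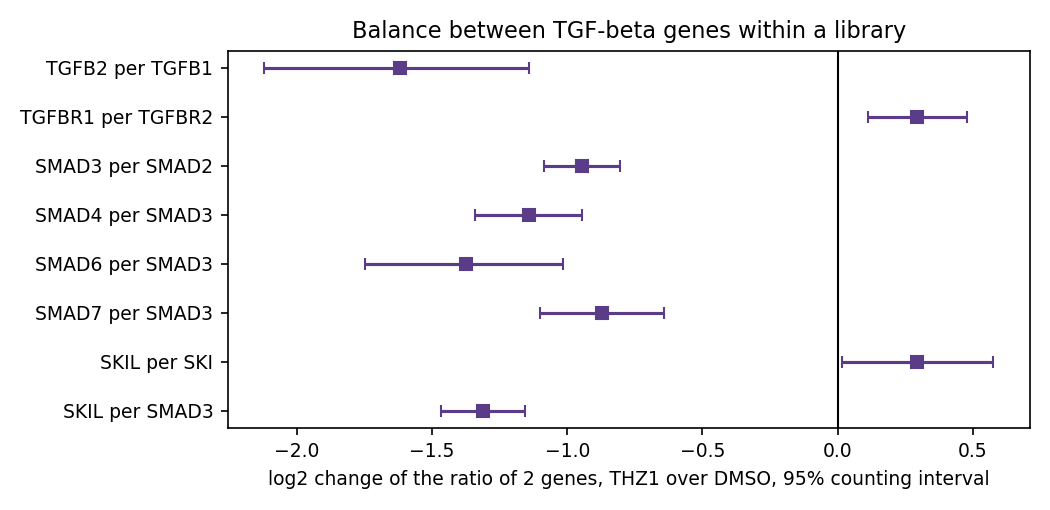
Log2 change, THZ1 over DMSO, of the ratio of transcripts of 2 genes within a library, with exact 95% counting intervals. The pairs TGFB2 per TGFB1 (−1.62), SMAD6 per SMAD3 (−1.38), SKIL per SMAD3 (−1.31) and SMAD4 per SMAD3 (−1.14) lie below 0, while TGFBR1 per TGFBR2 and SKIL per SKI lie just above it.

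By level per exonic length, the order in THZ1 was TGFB1 (38.5 TPM), TGFBR2 (28.5), SKIL (17.4), SMAD3 (13.9), TGFBR1 (13.2), SMAD2 (11.0), SMAD7 (7.59), SMAD4 (4.37), SMAD6 (1.38) and TGFB2 (1.31). In DMSO it was SKIL (117.3 TPM), TGFBR2 (77.4), TGFB1 (72.8), SMAD7 (37.8), SMAD3 (37.7), TGFBR1 (29.2), SMAD4 (26.3), SMAD2 (15.5), SMAD6 (9.74) and TGFB2 (7.59). On this length SKIL was the most abundant of these mRNAs in DMSO and stood behind TGFB1 and TGFBR2 in THZ1. The counting intervals of SMAD3 and TGFBR1 in THZ1, of SMAD6 and TGFB2 in THZ1, of TGFBR2 and TGFB1 in DMSO and of SMAD7 and SMAD3 in DMSO overlap. The TPM of a gene is used here to order and relate genes within a library, and differences between the libraries are read from the TMM ratios. The places of SMAD2 and TGFBR2 are uncertain. SMAD2 exons add up to 36366 bases in the annotation. With the median length of its annotated transcripts, 935 bases, SMAD2 ranked 1 in THZ1 and 2 in DMSO, in place of 6 and 8. By the same measure TGFBR2 ranked 8 in both libraries, in place of 2, while SKIL ranked 4 in THZ1, behind SMAD2, TGFB1 and SMAD3, and 1 in DMSO.

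Genomic span did not separate the lower members from the others. The lower genes span 32.2 kb (SMAD7), 39.2 kb (SKIL), 56.7 kb (SMAD4), 80.6 kb (SMAD6) and 98.4 kb (TGFB2) of the genome. The genes within 2-fold span 50.2 kb (TGFBR1), 52.3 kb (TGFB1), 87.6 kb (TGFBR2), 122.2 kb (SMAD2) and 131.4 kb (SMAD3). These ranges overlap.

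Around the members, 108 further genes of the TGF-beta and BMP pathways were listed, of which 80 had enough counts. Of these, 28 were lower (35.0%, beside 21.3% of all tested genes), 4 were higher (5.00%, beside 9.70%) and 48 were neither. Their median ratio was −0.58. The lists were chosen with earlier results of these data known. These shares, and those of each list below, therefore do not measure how unusual the pathway is. With total counts 43 were lower and 2 higher, beside 34.2% and 2.95% of all tested genes.

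**Figure D4:**
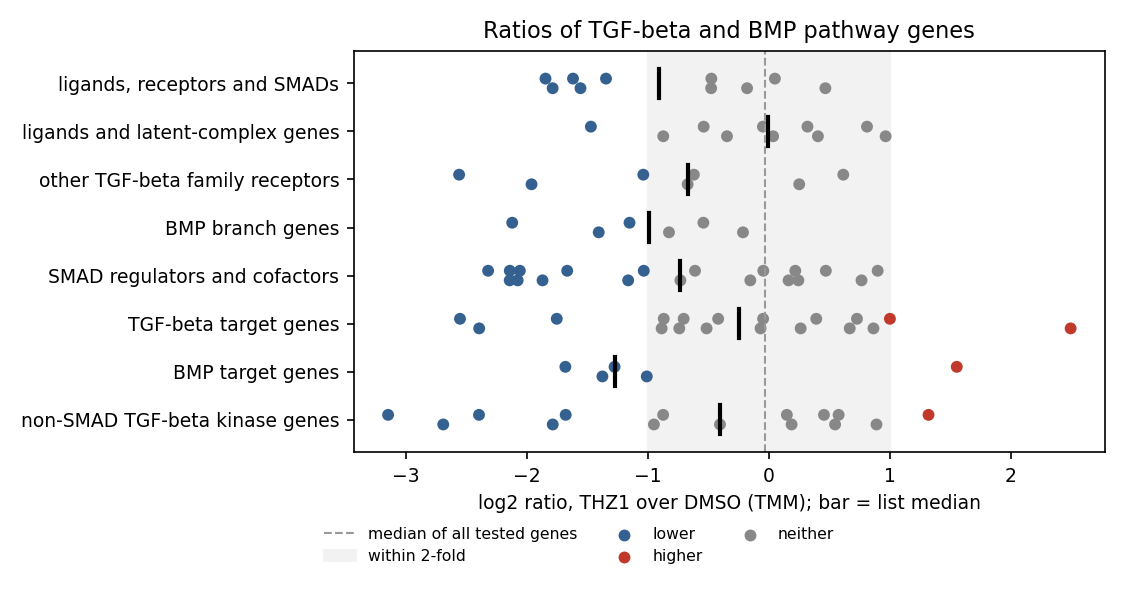
Log2 ratio of THZ1 over DMSO (TMM) of each tested gene in the member set and in 7 lists of further pathway genes, with a bar at each list's median and a dashed line at the median of all tested genes (−0.03). Lower genes (blue) make up 9 of 19 SMAD regulators and 1 of 10 genes of ligands and latent complexes, beside 21.3% of all tested genes. Higher genes (red) number 4 in all (5.00%, beside 9.70% of all tested genes). Of these only JUNB stays above 0 with the mitochondrial mRNAs as the scale.

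Of 18 genes for further ligands and the latent complex, 10 were tested. Of these 1 was lower (10.0%, beside 21.3% of all tested genes), 9 were neither and 0 were higher (beside 9.70%), with a median of −0.01. The lower gene was THBS1, whose product thrombospondin 1 can release latent TGF-beta, with 5976 counts (390.1 CPM) in THZ1 and 23857 counts (1082.0 CPM) in DMSO (−1.47, −1.51 to −1.43). The third ligand gene, TGFB3, had 93 and 246 counts (−0.87, −1.24 to −0.53), a value between those of TGFB1 and TGFB2. For the latent-TGF-beta binding protein gene LTBP1 the ratio was 0.97 (0.79 to 1.15) on the TMM scale and 0.45 with total counts. LTBP3 and LTBP4 were at −0.05 and 0.03, both below 0 with total counts. The activin subunit gene INHBB and the latent TGF-beta anchor genes LRRC32 and NRROS had 0 counts in both libraries, and the count floor of 3 corresponds to 0.196 CPM in THZ1 and 0.136 CPM in DMSO.

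With total counts, 5 of the 7 tested genes for other receptors of the family were lower, beside 34.2% of all tested genes. With TMM, 3 were lower (42.9%, beside 21.3% of all tested genes), 0 higher (beside 9.70%) and 4 neither (median −0.67). The lower ones are activin receptors: ACVR2B (49 and 420 counts; −2.56, −3.03 to −2.15), ACVR1B (52 and 294 counts; −1.96, −2.43 to −1.54) and ACVR2A (68 and 202 counts; −1.04, −1.46 to −0.64), which shares 430 exonic bases with ORC4 on the opposite strand. The betaglycan gene TGFBR3 had a ratio of 0.25 (0.02 to 0.47) and the coreceptor gene ENG −0.62 (−0.82 to −0.43), and TGFBR3 stands at −0.26 with total counts. In the BMP branch, 3 of 6 tested genes were lower, 0 higher and 3 neither (median −0.99), and with total counts 5 were lower. SMAD1, the receptor-activated SMAD of that branch, had 103 and 648 counts (−2.12, −2.44 to −1.83), whereas its close relative SMAD5 had 1676 and 3512 counts (−0.54, −0.63 to −0.46). The receptor gene BMPR1A had 308 and 1177 counts (−1.41, −1.59 to −1.23) and the ligand gene BMP6 95 and 305 counts (−1.15, −1.51 to −0.82). The counts in this paragraph are those of THZ1 and then of DMSO.

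SMAD regulators and cofactors numbered 19 tested genes, of which 10 were neither, 9 lower and 0 higher (median −0.73). The lower ones are 47.4%, beside 21.3% of all tested genes, of which 9.70% were higher. PMEPA1, a TGF-beta-induced gene whose product sequesters SMAD2 and SMAD3, had 242 counts (15.8 CPM) in THZ1 and 1744 counts (79.1 CPM) in DMSO, a ratio of −2.32 (−2.52 to −2.13). SKI, the paralogue of SKIL, had 144 counts in THZ1 and 877 in DMSO (−2.08, −2.35 to −1.83). The corepressor gene TGIF2 had 49 counts in THZ1 and 314 in DMSO (−2.14, −2.62 to −1.72), and the coactivator gene EP300 had 528 in THZ1 and 3359 in DMSO (−2.14, −2.28 to −2.01). Members of the list with ratios above 0 included STRAP (0.90) and FKBP1A (0.77), which encode proteins that bind the type I receptor; with the mitochondrial mRNAs both lie below 0.

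TGF-beta target genes outside the member set were mixed. The 18 tested genes had a median of −0.24, and 3 of them were lower, 2 were higher and 13 passed in neither direction. The lower ones are 16.7%, beside 21.3% of all tested genes, and the higher ones 11.1%, beside 9.70%, so both shares are near those of all genes. With total counts 8 were lower and 1 higher, beside 34.2% and 2.95% of all tested genes. CCN2, which encodes connective tissue growth factor, had 1874 counts (122.3 CPM) in THZ1 and 15842 counts (718.5 CPM) in DMSO, a ratio of −2.55 (−2.62 to −2.49). The transcription factor gene SNAI2 was lower too, with 24 counts in THZ1 and 185 in DMSO (−2.40, −3.10 to −1.80). JUNB, an AP-1 subunit gene, was higher, with 628 counts in THZ1 and 160 in DMSO (2.49, 2.25 to 2.76), and BHLHE40 was just past the 2-fold threshold, with 1710 counts in THZ1 and 1230 in DMSO (interval 0.89 to 1.11) and a ratio of 0.97, short of the threshold, with the upper quartile. JUNB stays above 0 with every scaling, at 0.80 with the mitochondrial mRNAs, where BHLHE40 is at −0.69. JUNB shares 259 exonic bases with HOOK2 on the opposite strand. The matrix gene FN1 had a ratio of 0.39 (0.35 to 0.43) and ZEB1 0.73 (0.65 to 0.81), and both are below 0 with the mitochondrial mRNAs, FN1 also with total counts.

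BMP target genes had 5 tested members, 4 lower (beside 21.3% of all tested genes) and 1 higher (beside 9.70%), with a median of −1.28. ID1, ID3, MSX1 and DLX2 were lower, with ratios of −1.28, −1.38, −1.68 and −1.01. DLX2 was just past the 2-fold threshold, and with DESeq2 size factors its ratio was −0.98, short of the threshold. The lower genes of this list then numbered 3, as they did with coding genes only, an interval bound of 2-fold and 5 added counts. ID2, named after its values were seen, was higher, with 78 counts in THZ1 and 38 in DMSO (1.55, 0.99 to 2.16), which is −0.14 with the mitochondrial mRNAs. Among 15 genes for the SMAD-independent kinase arm, 9 were neither, 5 lower (33.3%, beside 21.3% of all tested genes) and 1 higher (6.67%, beside 9.70%), with a median of −0.40. The ubiquitin ligase genes TRAF6 (50 counts in THZ1 and 644 in DMSO; −3.15, −3.61 to −2.75) and TRAF4 (49 and 460; −2.69, −3.16 to −2.28) were lower. So were the kinase gene MAP2K3 (−2.40, −2.71 to −2.11) and TAB1 (−1.79, −2.22 to −1.40), whose product activates the kinase TAK1. For MAP3K7, which encodes TAK1, the ratio was 0.19 (0.09 to 0.29) on the TMM scale and −0.33 with total counts. MAP2K6, a paralogue of MAP2K3, was higher (1.32, 1.03 to 1.62), and lies at −0.37 with the mitochondrial mRNAs.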

How the data were processed

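Libraries of T24/R cells treated with THZ1 or DMSO were prepared from TRIzol-extracted RNA with a KAPA mRNA kit, per the labels' protocols. The authors deposited raw counts, without normalization, as the whole-number values show. Tools listed in the submitters' processing notes are featureCounts 1.6.0, HISAT2 2.1.0 and Trimmomatic 0.38, with build GRCh38. How strand and multi-mapping reads were handled, and with which annotation, is not given in the sources used here, so genes with antisense or overlapping partners are uncertain.

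Of 58884 gene IDs, GENCODE 29 held 58611 and the symbol table named 58472. TMM factors came from edgeR 4.0.16 (R 4.3.3) on the 12457 tested genes, those reaching 30 counts in either library. Effective library sizes were 15320940 for THZ1 and 22049153 for DMSO. Log2 ratios had 0.5 added to each count. Their 95% intervals are Clopper-Pearson intervals of the THZ1 share of both counts, and those of ratios between genes are conditional exact intervals. Reads carried no molecular identifiers and are not independent, so intervals and floors (3 counts) cover counting error only. TPM used the summed exon length. The ratio and call were tested on simulated data. Alternative scalings were DESeq2 1.42.0 size factors, total counts, the mitochondrial mRNAs and the upper quartile; other alternatives were minimums of 1 and 100 counts; coding genes only; an interval bound of 2-fold; 5 added counts; and other transcript lengths.

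Members and lists were chosen with earlier results of these data known. Of each further list, up to 4 lower and 4 higher genes with 100 or more counts and the ratios furthest from 0 are named as called; the rest are named for their place in the pathway, after their values were seen. A gene that this rule names is not reported here. The motifs were chosen with the sequences in view. Promoters are RefSeq's (GRCh38.p14; all 10 members matched). Python 3.11.15 was used with scipy 1.17.1, numpy 2.4.6, pandas 2.3.3 and matplotlib 3.10.9.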

Additional observations from a re-analysis of the deposited data

How the results depend on the processing

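The 5 lower members were the same 5 under total counts, DESeq2 size factors, the upper quartile, both count minimums, coding genes only, the stricter interval and 5 added counts. The count minimums could not change a member's call, since even TGFB2, the lowest, had 205 counts in DMSO. All 10 members are coding genes, so that setting drops none and only shifts their ratios by 0.03. With the mitochondrial mRNAs as the scale, 10 members, 69 of 80 tested listed genes and 10000 of all tested genes (80.3%) were lower. With TMM these were 5, 28 and 2657 (21.3%). On the mitochondrial scale 88 of all genes (0.706%) and 0 of the listed genes were higher, against 1208 (9.70%) and 4 with TMM. With total counts, 43 listed and 4260 of all genes (34.2%) were lower, and 2 listed and 368 of all genes (2.95%) were higher. A minimum of 1 count gave 7 higher among listed and 2223 among all genes, which is 8.17% of the 27211 genes then tested. The stricter interval gave 2 higher among listed and 670 among all genes (5.38%). The scaling shifts every ratio by a constant, and these counts carry no information on RNA per cell. The median transcript length was added after the data were seen. Low counts limit TGFB2 and SMAD6 most. No paired analysis was possible because each group has 1 library, and no replicate could be left out.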
